A study of Mus musculus with 12 samples.

Results

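Myosin light chains are the small subunits that sit on the neck of the myosin heavy chain, the motor of muscle contraction. The 5 striated-muscle light chain genes described here are Myl7 and Myl4, the atrial regulatory and essential chains, Myl2 and Myl3, the ventricular regulatory and essential chains, and Myl1, the essential chain of fast skeletal muscle. They were taken by name, as a gene family rather than by a threshold on measured values, with earlier results of these data known, and all 5 were found among 56350 gene IDs and were among the 13916 genes tested. They were measured by sequencing of polyadenylated RNA from the left ventricle apex of mice, 8 weeks after surgery. Transverse aortic constriction (TAC) narrows the aorta and raises the pressure against which the left ventricle pumps, and sham surgery is the operation without it. The 4 groups of 3 libraries were lincRNA-p21 knockout mice after TAC, lincRNA-p21 knockout mice after sham surgery, control mice after TAC and control mice after sham surgery. The knockout is global, and the controls are littermates that the labels give as lincRNA-p21 heterozygous, so every animal carried at least one altered allele. LincRNA-p21 is a long noncoding RNA induced by the tumour suppressor p53. The labels give neither age, strain nor sex, and do not say whether replicates came from separate animals. The p-values therefore cover only the variation among these samples, part of which may be technical.

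Each myosin head carries one regulatory and one essential light chain. Phosphorylation of the regulatory chain by myosin light chain kinases, and its removal by a phosphatase, tunes the force that the head produces. In the mouse heart Myl2 and Myl3 are ventricular from development on, while Myl7 and Myl4 are present throughout the early heart tube and become restricted to the atria. Renewed expression of atrial and fetal sarcomere genes is a known feature of ventricles under pressure overload.

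The promoter windows of Myl7, Myl3 and Myl4 are shown because the atrial pair and the ventricular pair moved in opposite directions in the comparisons below. All 5 genes matched the RefSeq promoter table for GRCm38.p6, which gives 250 bases before and 50 bases after each start site. The Myl7 window is chr11:5898733-5899032 on the minus strand, the Myl3 window is chr9:110763428-110763727 on the plus strand, and the Myl4 window is chr11:104550413-104550712 on the plus strand. Each is written 5′ to 3′, with matches to the searched motifs in capitals.
Myl7: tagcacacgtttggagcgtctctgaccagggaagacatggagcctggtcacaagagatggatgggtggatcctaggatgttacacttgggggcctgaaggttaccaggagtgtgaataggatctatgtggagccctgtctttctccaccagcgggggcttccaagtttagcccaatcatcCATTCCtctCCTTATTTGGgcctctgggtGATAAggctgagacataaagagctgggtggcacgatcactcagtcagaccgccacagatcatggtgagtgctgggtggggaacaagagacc
Myl3: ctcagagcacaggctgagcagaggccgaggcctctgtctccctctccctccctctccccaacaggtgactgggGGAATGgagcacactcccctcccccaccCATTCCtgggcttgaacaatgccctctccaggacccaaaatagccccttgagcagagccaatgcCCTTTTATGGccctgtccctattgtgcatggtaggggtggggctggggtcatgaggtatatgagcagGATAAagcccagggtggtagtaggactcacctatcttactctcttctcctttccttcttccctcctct
Myl4: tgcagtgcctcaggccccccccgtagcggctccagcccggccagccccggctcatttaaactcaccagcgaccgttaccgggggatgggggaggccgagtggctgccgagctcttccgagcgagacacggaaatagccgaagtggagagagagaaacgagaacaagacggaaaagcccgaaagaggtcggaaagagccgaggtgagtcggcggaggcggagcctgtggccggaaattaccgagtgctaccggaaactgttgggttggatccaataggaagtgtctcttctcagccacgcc
The motifs searched on both strands were the TATA box (TATAAA), the site of GATA factors (GATAA), the MCAT element of TEAD factors (CATTCC), the site of T-box factors (AGGTGT), and the CArG and MEF2 boxes of muscle genes. The Myl7 window held CATTCC at −70, a CArG box at −61 and GATAA at −41, counted from the start site. The Myl3 window held a CArG box at −85 and GATAA at −18, with CATTCC at −177 on the minus strand and at −149 on the plus strand. The Myl4 window held no match to any of the 6, and none of the matches overlapped. Over all 32851 windows of the table, a CArG box was found in 1.63%, a MEF2 box in 3.19%, TATAAA in 13.6%, AGGTGT in 13.7%, CATTCC in 14.7% and GATAA in 25.4%. The start sites used for Myl7 and Myl4 are also the GENCODE gene starts. That of Myl3 lies 21817 bases inside the GENCODE gene, 32 bases from the start of an annotated transcript. Myl2 is not shown, since the start sites of its 2 RefSeq windows lay 7762 and 8227 bases from the nearest GENCODE transcript start.

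The libraries held 10323605 to 13238934 reads counted to genes. Values are the authors' normalised read counts, reads divided by a size factor per library. Transcripts of Trp53cor1, the lincRNA-p21 gene, were at 0 reads in all 6 knockout libraries, while the control TAC libraries held 0 to 4 reads (7 in all) and the control sham libraries 0 to 2 (4 in all), too few to check a single library's label. Control sham replicate 3 stood apart on the second principal component (score −46.8). Knockout TAC replicate 3 scored −15.6 there, against 22.9 and 33.7 in the other knockout TAC libraries. Without both of them, every one of the member calls described below as passed still passed.

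Among themselves the genes spanned more than 4 orders of magnitude, compared per length as TPM, the length-corrected share of a library computed from the counts. Myl2 and Myl3 ranked 9th and 12th of all gene IDs by mean TPM, Myl1 3501st, Myl7 4638th and Myl4 9893rd. Myl2 averaged 17966 ± 2892 TPM in knockout TAC, 17867 ± 613 in knockout sham, 13130 ± 806 in control TAC and 18713 ± 4025 in control sham libraries (SD, n = 3 each). Myl3 averaged 10428 ± 1315, 10550 ± 508, 7798 ± 273 and 10673 ± 2244 TPM in the same groups. Below these, the order differed by group. In control TAC libraries Myl7 (55.9 ± 24.2 TPM) was above Myl1 (22.9 ± 3.30) and Myl1 above Myl4 (9.20 ± 1.41), with no overlap between neighbours. These values use the union of a gene's exons as its length, and with the longest transcript in its place Myl7 (46.2 ± 20.1 TPM) and Myl1 (36.2 ± 5.23) overlapped in control TAC libraries. In knockout TAC libraries the order was Myl1 (20.2 ± 3.27 TPM), Myl4 (1.57 ± 0.384) and Myl7 (0.545 ± 0.487), with no overlap under either length. In both sham groups Myl1 was above the atrial pair, and the libraries of Myl7 and Myl4 overlapped.

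In controls, TAC changed 4 of the 5 light chains: the atrial Myl7 and Myl4 rose, and the ventricular Myl2 and Myl3 fell. Of all tested genes 21.6% passed in this comparison, 11.0% up and 10.6% down, by limma-trend with a Benjamini-Hochberg adjusted p below 0.05. The falls of Myl2 and Myl3 no longer passed once each library's trend on transcript length and GC content was removed (adjusted p = 0.052 and 0.11), while the rises of Myl7 and Myl4 still passed. In knockouts 0 of 5 passed, where 0.00719% of all genes did (1 gene), and 1 of the 5, Myl7, had an unadjusted p below 0.05 by limma, as did 929 genes in all. After TAC, knockouts differed from controls in the same 4 genes in the opposite directions, with Myl2 and Myl3 higher and Myl7 and Myl4 lower. There 8.23% of all genes passed, 570 (4.10%) higher and 575 (4.13%) lower. This split depended on scaling, at 299 higher and 951 lower by total count and 706 and 523 by TMM. These comparisons share the control TAC libraries, so their opposite directions are not separate results. After sham surgery 0 of 5 passed, as did 0% of all genes, and 0 of the 5 had an unadjusted p below 0.05 by limma, against 604 genes in all. Under edgeR, DESeq2 and voom also, 0 of the 5 passed in knockouts under TAC or between genotypes after sham, though DESeq2 gave no adjusted p for Myl7 in knockouts. The difference between the TAC effects of the genotypes passed for Myl7 and Myl4, both in the negative direction, against 0.309% of all genes (0.295% in that direction).

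**Figure D1:**
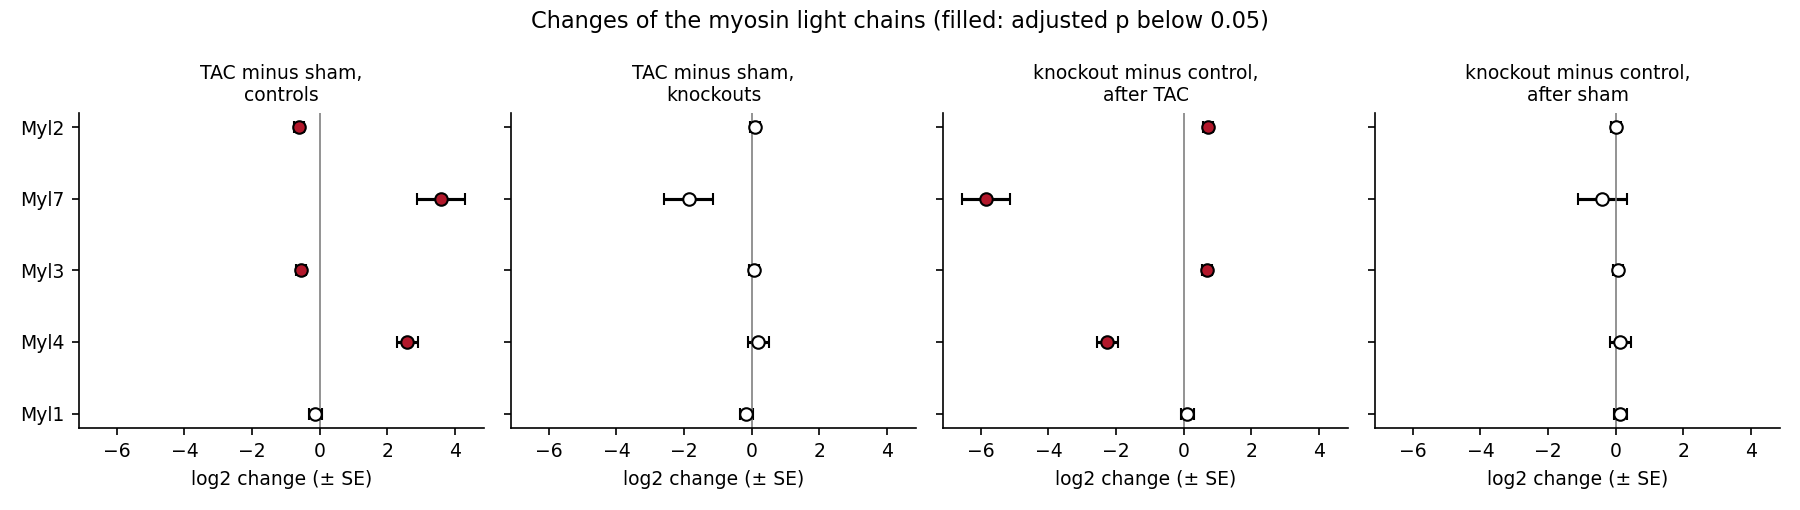
Log2 change on the log2(normalised count + 1) scale with its standard error (horizontal axis) of each light chain (vertical axis) in 4 comparisons, with filled points for an adjusted p below 0.05. Myl7 and Myl4 lie at 3.58 and 2.59 under TAC in controls and at −5.84 and −2.26 in knockouts against controls after TAC, with Myl2 and Myl3 on the other side of 0 in both.

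Myl7, the atrial regulatory chain (ENSMUSG00000020469.8, GRCm38 chromosome 11, 5896637 to 5898782, minus strand), was the most variable of the 5. Its normalised counts were 2.90, 2.22 and 0 in knockout TAC libraries, 18.3, 10.04 and 1.81 in knockout sham libraries, 115, 95.8 and 212 in control TAC libraries, and 25.6, 5.70 and 6.78 in control sham libraries. All 3 control TAC libraries were above the other 9, while the knockout TAC and knockout sham libraries overlapped. Summed over 3 libraries this was 5 reads in knockout TAC, 31 in knockout sham, 426 in control TAC and 38 in control sham. The library with 0 reads allows up to 3 reads, or 3.27 normalised counts. Under TAC in controls Myl7 rose by 3.58 ± 0.72 (log2, SE; 12.0-fold; limma adjusted p = 0.0036). In knockouts the TAC change was −1.86 ± 0.72 (adjusted p = 0.68, unadjusted 0.021), which did not pass. Knockouts after TAC were lower than controls after TAC by −5.84 ± 0.72 (57.5-fold on this scale, adjusted p = 0.00054), the lowest change of all 13916 genes tested. Its size ranged from −6.22 to −5.24 with libraries left out and was −4.39 with a pseudocount of 5, and it passed in each case. After sham surgery the knockout difference was −0.40 ± 0.72 (adjusted p = 0.97). The difference between the TAC effects was −5.44 ± 1.02 (adjusted p = 0.032), also the lowest of all genes. Leaving out 1 library at a time, this last call remained only without control sham replicate 1, knockout sham replicate 3 or knockout TAC replicate 3, with adjusted p from 0.0540 to 0.126 without each of the other 9. With a pseudocount of 0.5 it was −5.87 (adjusted p = 0.053). Myl7 passed the filter on low values with at least 10 normalised counts in 6 libraries, 3 of them outside control TAC.

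Myl4, the atrial essential chain (ENSMUSG00000061086.12, chromosome 11, 104550663 to 104595753, plus strand), is also the embryonic essential chain of skeletal muscle. It had 39.6, 28.8 and 43.6 normalised counts in knockout TAC libraries, 34.6, 29.2 and 32.6 in knockout sham libraries, 174, 159 and 213 in control TAC libraries, and 15.98, 33.2 and 45.8 in control sham libraries. The 3 control TAC libraries stood above the other 9, which overlapped across their 3 groups. Under TAC in controls Myl4 rose by 2.59 ± 0.31 (6.03-fold, limma adjusted p = 9.2e-05), and in knockouts the change was 0.19 ± 0.31 (adjusted p = 0.93). Knockouts after TAC were lower than controls after TAC by −2.26 ± 0.31 (4.80-fold, adjusted p = 0.0010), against a difference of 0.14 ± 0.31 after sham (adjusted p = 0.97). The difference between the TAC effects was −2.40 ± 0.44 (adjusted p = 0.028). That call remained only without control sham replicate 1, control sham replicate 3 or knockout TAC replicate 3, with adjusted p from 0.0511 to 0.108 without each of the other 9. Myl4 overlaps 4 predicted genes on the other strand, of which Gm11665 had the most reads over all libraries, 51 against 856 for Myl4. The exons of Gm11665 share 0 bases with those of Myl4, and the most shared by any of the 4 is 3 (Gm22000). The strand setting of the authors' counting is not given in the sources used here.

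**Figure D2:**
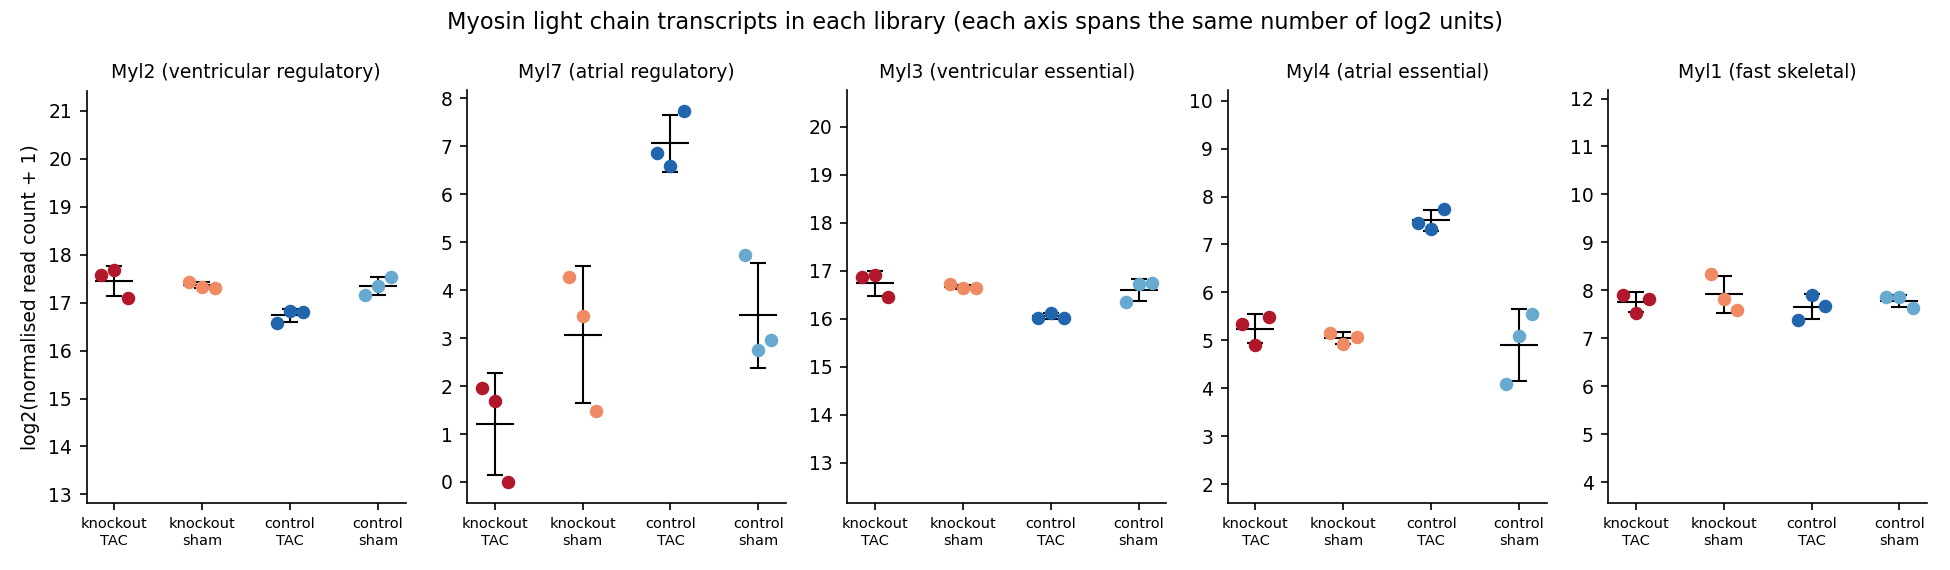
Log2(normalised read count + 1) of each light chain (vertical axis) in the 3 libraries of each group (horizontal axis), with points for libraries and bars for the mean ± SD; the vertical axes start at different levels and have the same span. In the panels of Myl7 and Myl4 the 3 control TAC libraries lie above all others, with normalised counts of 95.8 to 212 and 159 to 213.

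Myl2, the ventricular regulatory chain and the main target of cardiac light chain kinase (ENSMUSG00000013936.12, chromosome 5, 122100951 to 122113472, plus strand), took the most reads of the 5. Its normalised counts were 196231, 209816 and 140048 in knockout TAC libraries, 176654, 165455 and 162743 in knockout sham libraries, 97412, 115782 and 114647 in control TAC libraries, and 146379, 165882 and 190504 in control sham libraries. The control TAC libraries were below all other 9, and knockout TAC replicate 3 was the lowest of those 9. Under TAC in controls Myl2 fell by −0.61 ± 0.15 (limma adjusted p = 0.011), and in knockouts it was 0.09 ± 0.15 (adjusted p = 0.93). Knockouts after TAC were above controls after TAC by 0.72 ± 0.15 (1.65-fold, adjusted p = 0.012), and after sham by 0.01 ± 0.15 (adjusted p = 0.998). The difference between the TAC effects, 0.71 ± 0.22, did not pass (adjusted p = 0.14), and it passed under DESeq2 (0.73, adjusted p = 0.027).

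Myl3, the ventricular essential chain, which is also found in slow skeletal muscle (ENSMUSG00000059741.13, chromosome 9, 110741861 to 110769798, plus strand), followed Myl2 closely. It had 119446, 123232 and 89185 normalised counts in knockout TAC libraries, 107902, 101816 and 102528 in knockout sham libraries, 66573, 71194 and 65989 in control TAC libraries, and 82941, 107807 and 110367 in control sham libraries. Here too the control TAC libraries were below all other 9. The change under TAC was −0.55 ± 0.14 in controls (limma adjusted p = 0.014) and 0.07 ± 0.14 in knockouts (adjusted p = 0.94). Knockouts exceeded controls by 0.69 ± 0.14 after TAC (1.61-fold, adjusted p = 0.011) and by 0.06 ± 0.14 after sham (adjusted p = 0.97). The difference between the TAC effects was 0.63 ± 0.20 (adjusted p = 0.15; 0.65 under DESeq2, adjusted p = 0.034). The ratio of Myl2 to Myl3 in TPM stayed between 1.53 and 1.85 in all 12 libraries, and together they took 1.47% to 2.90% of all reads.

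The falls of Myl2 (−0.61) and Myl3 (−0.55) in controls lay within the interquartile range of tested genes with transcripts of like length. That range was −0.72 to −0.022 from 500 to 1000 bases and −0.58 to −0.042 from 1000 to 1500 bases. The cause of the falls in short genes was not tested. The longest transcripts of Myl2 and Myl3 have 889 and 1125 bases, and the 1018 tested genes between 500 and 1200 bases had a median TAC change of −0.41 in controls, with 28.4% passing down and 1.96% up. With each library's trend on transcript length and GC content removed, the TAC change in controls was −0.35 for Myl2 (adjusted p = 0.052) and −0.28 for Myl3 (adjusted p = 0.11), so both calls ended. Myl4 (2.66) and Myl7 (4.02) still passed there. In knockouts against controls after TAC the same length class had a median of 0.38, and with the trend removed Myl2 (0.46, adjusted p = 0.031) and Myl3 (0.44, adjusted p = 0.035) still passed. Leaving out 1 library ended the TAC call in controls for Myl2 without control TAC replicate 1 (adjusted p = 0.054) and for Myl3 without control sham replicate 2 (0.051). The genotype call after TAC ended for both without knockout TAC replicate 1 or 2, and for Myl2 also without control TAC replicate 1 (adjusted p 0.065 to 0.079).

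**Figure D3:**
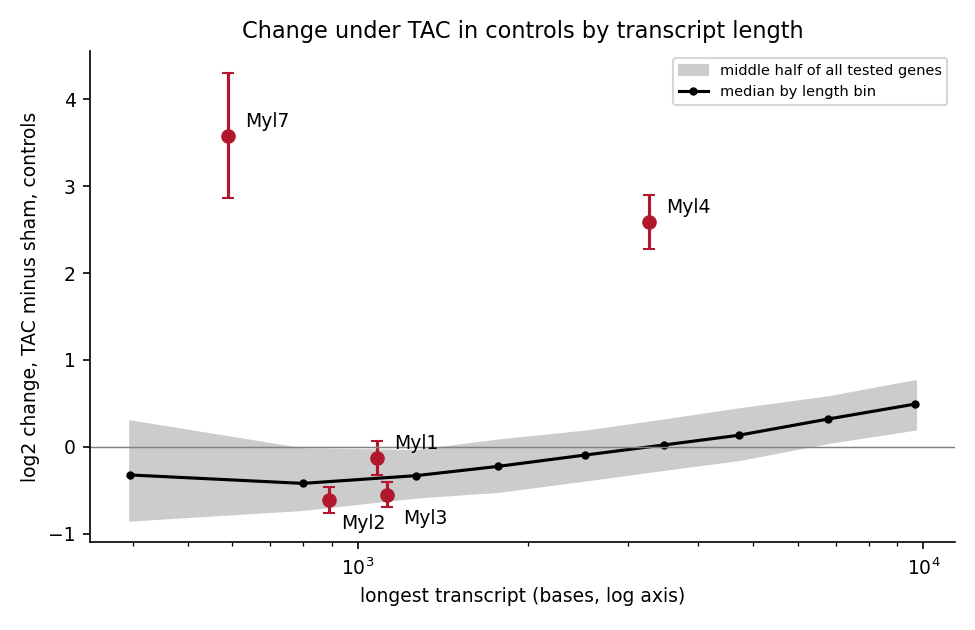
Log2 change under TAC in controls (vertical axis) against the longest transcript in bases (horizontal log axis), with the median and interquartile range of tested genes in length bins and the 5 light chains as points with SE. Myl2 and Myl3 lie within or near the band of short genes, whose median is −0.41 between 500 and 1200 bases, while Myl7 and Myl4 lie far above the band at 3.58 and 2.59.

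Myl1, the essential chain of fast skeletal muscle (ENSMUSG00000061816.15, chromosome 1, 66924295 to 66945404, minus strand), gave no call. It had 239, 183 and 226 normalised counts in knockout TAC libraries, 325, 224 and 193 in knockout sham libraries, 167, 238 and 204 in control TAC libraries, and 231, 230 and 198 in control sham libraries. All 4 groups overlapped. Its change under TAC was −0.13 ± 0.19 in controls and −0.17 ± 0.19 in knockouts (limma adjusted p = 0.68 and 0.91), and knockouts differed from controls by 0.10 ± 0.19 after TAC and 0.14 ± 0.19 after sham (adjusted p = 0.80 and 0.96).

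Counted without a test, the libraries of the groups did not overlap for Myl4 and Myl7 (higher) and Myl2 and Myl3 (lower) under TAC in controls, where 35.5% of all genes were so separated, 17.7% in each direction. For knockouts against controls after TAC, Myl2 and Myl3 were higher and Myl4 and Myl7 lower with no overlap, against 15.6% and 15.5% of all genes (31.1% in all). For all 5 members the libraries overlapped between TAC and sham in knockouts, where 17.2% of all genes did not (8.31% higher, 8.87% lower), and between genotypes after sham, where 9.62% did not (4.94% higher, 4.68% lower).

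The atrial form remained a small share of each pair in every library. Per length, Myl7 made up 0.00279% ± 0.00251 of Myl2 + Myl7 in knockout TAC, 0.0193% ± 0.0153 in knockout sham, 0.422% ± 0.170 in control TAC and 0.0269% ± 0.0266 in control sham libraries (SD, n = 3 each). Myl4 made up 0.0155% ± 0.00567, 0.0136% ± 0.000826, 0.118% ± 0.0220 and 0.0135% ± 0.00490 of Myl3 + Myl4 in the same groups. The control TAC libraries ranged from 0.273% to 0.606% for Myl7 and from 0.0981% to 0.142% for Myl4, above every other library. The percentages depend on the lengths used. With the longest transcript the Myl7 share was 0.00127% ± 0.00115 in knockout TAC, 0.00881% ± 0.00698 in knockout sham, 0.193% ± 0.0777 in control TAC and 0.0123% ± 0.0122 in control sham libraries, with control TAC still above every other library. A share within a library does not depend on its scaling. For both pairs, two-sided exact permutation tests of control TAC against control sham, and of knockout TAC against control TAC, gave p = 0.1, the smallest that 3 against 3 allow. With surgery labels permuted within genotype, the exact permutation p was 0.095 for the Myl7 share and 0.035 for the Myl4 ratio. With genotype labels permuted within surgery, it was 0.04 and 0.065. Benjamini-Hochberg adjustment over the 12 tests left none below 0.15.

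**Figure D4:**
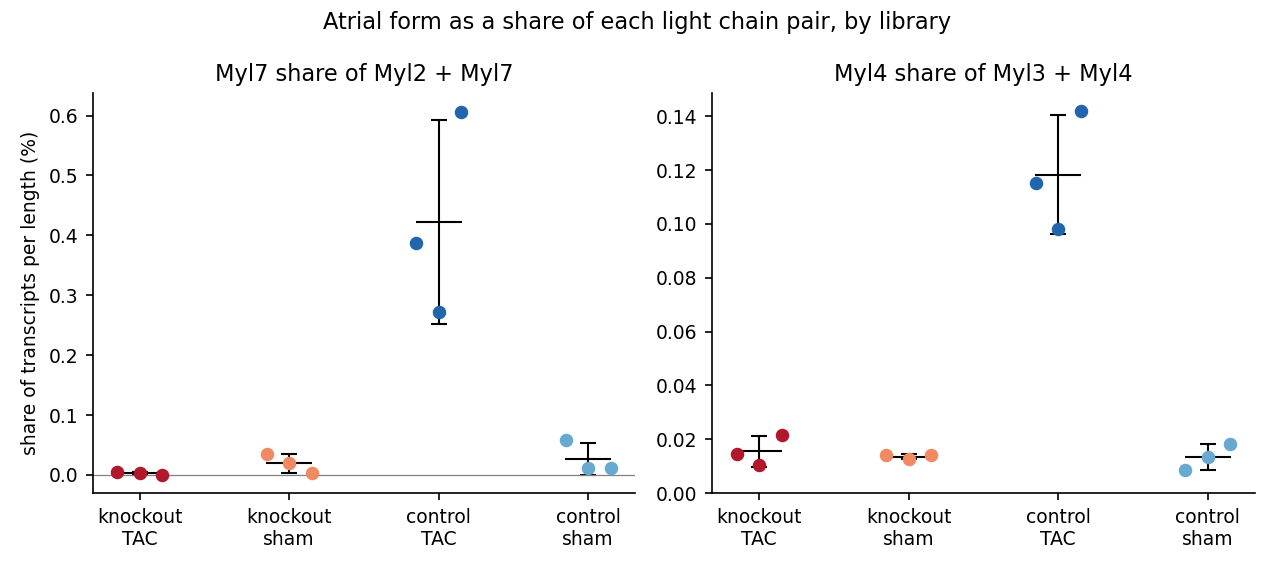
Myl7 as a percentage of Myl2 + Myl7 (left) and Myl4 as a percentage of Myl3 + Myl4 (right) per length (vertical axes) in each library by group (horizontal axes), with the mean ± SD. The control TAC libraries range from 0.273% to 0.606% on the left and from 0.0981% to 0.142% on the right, and the other 9 lie below them.

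Likeness was measured by Pearson's r of log2(value + 1) over all 12 libraries, which share the group differences. Myl2 and Myl3 had r = 0.974, and 0.897 after the group means were removed. Myl7 and Myl4 had r = 0.708, and −0.431 after the group means were removed. The latter value pools all 4 groups, among them knockout TAC with 5 Myl7 reads in all. In control TAC libraries both genes were highest in replicate 3 (212 and 213 normalised counts) and lowest in replicate 2 (95.8 and 159). The genes most like Myl2 were Pgam2, the muscle phosphoglycerate mutase (0.982), Ndufa4, a subunit of the respiratory chain (0.977), Mcee, methylmalonyl-CoA epimerase (0.976), Myl3, and Ndufb9, a complex I subunit (0.973). Those most like Myl3 were Pgam2 (0.991), the translation initiation factor Eif1 (0.980), the peroxiredoxin Prdx2 (0.976), the mitochondrial ribosomal protein gene Mrps15 (0.975) and Myl2. Pgam2 had 10586 ± 1833 normalised counts in knockout TAC, 10099 ± 293 in knockout sham, 6363 ± 322 in control TAC and 10183 ± 1466 in control sham libraries. The genes most like Myl4 were Rbsn (0.948), an endosomal protein gene, the scaffold Iqgap1 (0.948), Ssc5d (0.947), the matrix glycoprotein Thbs4 (0.940) and the phosphatase Ppm1e (0.932). Thbs4 had 94.2 ± 25.1 normalised counts in knockout TAC, 58.7 ± 13.5 in knockout sham, 982 ± 200 in control TAC and 62.4 ± 2.95 in control sham libraries, and its r with Myl4 was 0.044 once group means were removed. Those most like Myl7 were the collagen-binding proteoglycan gene Fmod (0.935), the noncoding RNA Lncpint (0.926), the receptor Tgfbr2 (0.920), the protease inhibitor Serpina3n (0.919) and the sulfatase Sulf1 (0.916). Fmod had 28.001 ± 12.3, 45.5 ± 3.05, 291 ± 56.4 and 58.1 ± 32.2 normalised counts in the same group order. For Myl1 the highest values were lower, with the lysosomal gene Aga at 0.815, then Grap2 (0.807), Tox4 (0.784), Ttc12 (0.780) and Ctsa (0.762).

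Of the other myosin light chains, 7 of 8 listed genes were in the table and 6 were tested. Of these 1 changed under TAC in controls, where 21.6% of all tested genes did. Myl9, the regulatory chain of smooth muscle, fell by −0.91 ± 0.25 (limma adjusted p = 0.018), a call lost once the trend on length and GC was taken out (−0.47, adjusted p = 0.21). The nonmuscle chains Myl6 (−0.19), Myl12a (0.33) and Myl12b (−0.28) and the fast skeletal regulatory chain Mylpf (−0.68) did not pass, though Myl12a did with that trend taken out (0.48, adjusted p = 0.025). The median of the 6 was −0.27 against 0.01 over all genes tested. None of the 6 passed in the other 4 comparisons. Myl10 was at 0 reads in every library.

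Of the enzymes that act on regulatory light chains, 13 of 14 were tested, and under TAC in controls 4 rose and 2 fell. Those that rose included the phosphatase targeting subunits Ppp1r12a (0.70) and Ppp1r12b (0.54). Of the listed kinases, Rock1 and Rock2 also had higher means after TAC than after sham in controls. Rock1 averaged 463 ± 145 normalised counts in control sham, 766 ± 39.4 in control TAC and 589 ± 34.6 in knockout TAC libraries. Rock2 averaged 1267 ± 321, 2380 ± 425 and 1414 ± 209 in the same groups. The phosphatase inhibitor subunits Ppp1r14a (−0.79) and Ppp1r14b (−0.54) fell, with limma adjusted p from 0.0021 to 0.039 for the 6. None of these 6 passed with the length and GC trend removed (adjusted p from 0.061 to 0.68), and Ppp1r14b then had the other sign (0.18). Of the other 7 tested, the kinase Dapk3 (0.46, adjusted p = 0.019) and the smooth muscle light chain kinase Mylk (−0.46, adjusted p = 0.049) passed in that fit, against −0.11 and −0.28 without the removal. Mylk3, the cardiac light chain kinase, was at −0.14 ± 0.15 (adjusted p = 0.54), and Mylk4 at 0.14 ± 0.32 (0.79). Between genotypes after TAC, 2 of 13 were lower in knockouts and 0 higher, Ppp1r12a (−0.53) among them, at −0.39 without the trend (adjusted p = 0.093), and 0 of 13 passed in knockouts under TAC.

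Among the myosin heavy chains and myosin-binding proteins, 5 of 13 were tested, and 3 rose under TAC in controls. Myh7, the beta heavy chain of the fetal heart, rose by 3.50 ± 0.26 (limma adjusted p = 3.4e-06), Mybpc2, the fast-type myosin-binding protein C, by 1.69 ± 0.18 (4.2e-05), and Mybpc3, the cardiac one, by 0.40 ± 0.13 (0.041). Myh7 was the only listed gene outside the 5 light chains whose TAC effect differed between genotypes (−2.86 ± 0.37, adjusted p = 0.0043). That difference holds both a knockout minus control difference of 1.498 ± 0.26 after sham (adjusted p = 0.67, unadjusted 4.8e-05) and one of −1.36 ± 0.26 after TAC (adjusted p = 0.0090). Myh7 averaged 15713 ± 2683 normalised counts in knockout TAC, 10003 ± 441 in knockout sham, 41990 ± 15464 in control TAC and 3664 ± 1111 in control sham libraries. The ratio of regulatory light chains to heavy chains, (Myl2 + Myl7) to (Myh6 + Myh7) in TPM, averaged 2.51 in knockout TAC (1.46 to 3.65), 1.80 in knockout sham (1.69 to 1.91), 1.23 in control TAC (1.16 to 1.29) and 2.19 in control sham libraries (1.82 to 2.55). The control TAC libraries were the lowest. The ratio sets short transcripts against long ones, and the part of the length trend in it was not tested.

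The atrial marker list did not move as a whole with Myl7 and Myl4. Of 14 markers 11 were tested, and under TAC in controls 3 rose (Nppa 2.91, Sln 4.25, Dkk3 2.11) and 3 fell (Stard10 −1.34, Tbx5 −1.15, Gja5 −0.97), with limma adjusted p from 6.7e-05 to 0.0027. The list median was −0.53 against 0.01 over all genes. Sln, an atrial inhibitor of the calcium pump, summed to 1 read in knockout TAC, 0 in knockout sham, 137 in control TAC and 4 in control sham libraries. Its normalised counts were 24.9 to 69.9 in control TAC libraries and at most 1.70 in the other groups. Sln thus passed the filter on low values only through the group where it was high. Bmp10, a growth factor of atrial muscle, was at 0 reads in all 3 control TAC libraries, and Mybphl, an atrial myosin-binding protein, summed to 16 reads there. The summed level of the 14 markers was 418 to 529 TPM in knockout TAC, 345 to 372 in knockout sham, 801 to 1647 in control TAC and 234 to 365 in control sham libraries. Without Nppa, the natriuretic peptide gene that dominates this sum, it was 122 to 139, 172 to 175, 129 to 155 and 171 to 182 TPM in the same groups, so it was not raised in control TAC libraries. Between genotypes after TAC, Sln (−5.08) and Dkk3 (−2.08) were lower and Stard10 (0.87) and Tbx5 (0.75) higher in knockouts. In knockouts under TAC 0 of 11 passed.

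**Figure D5:**
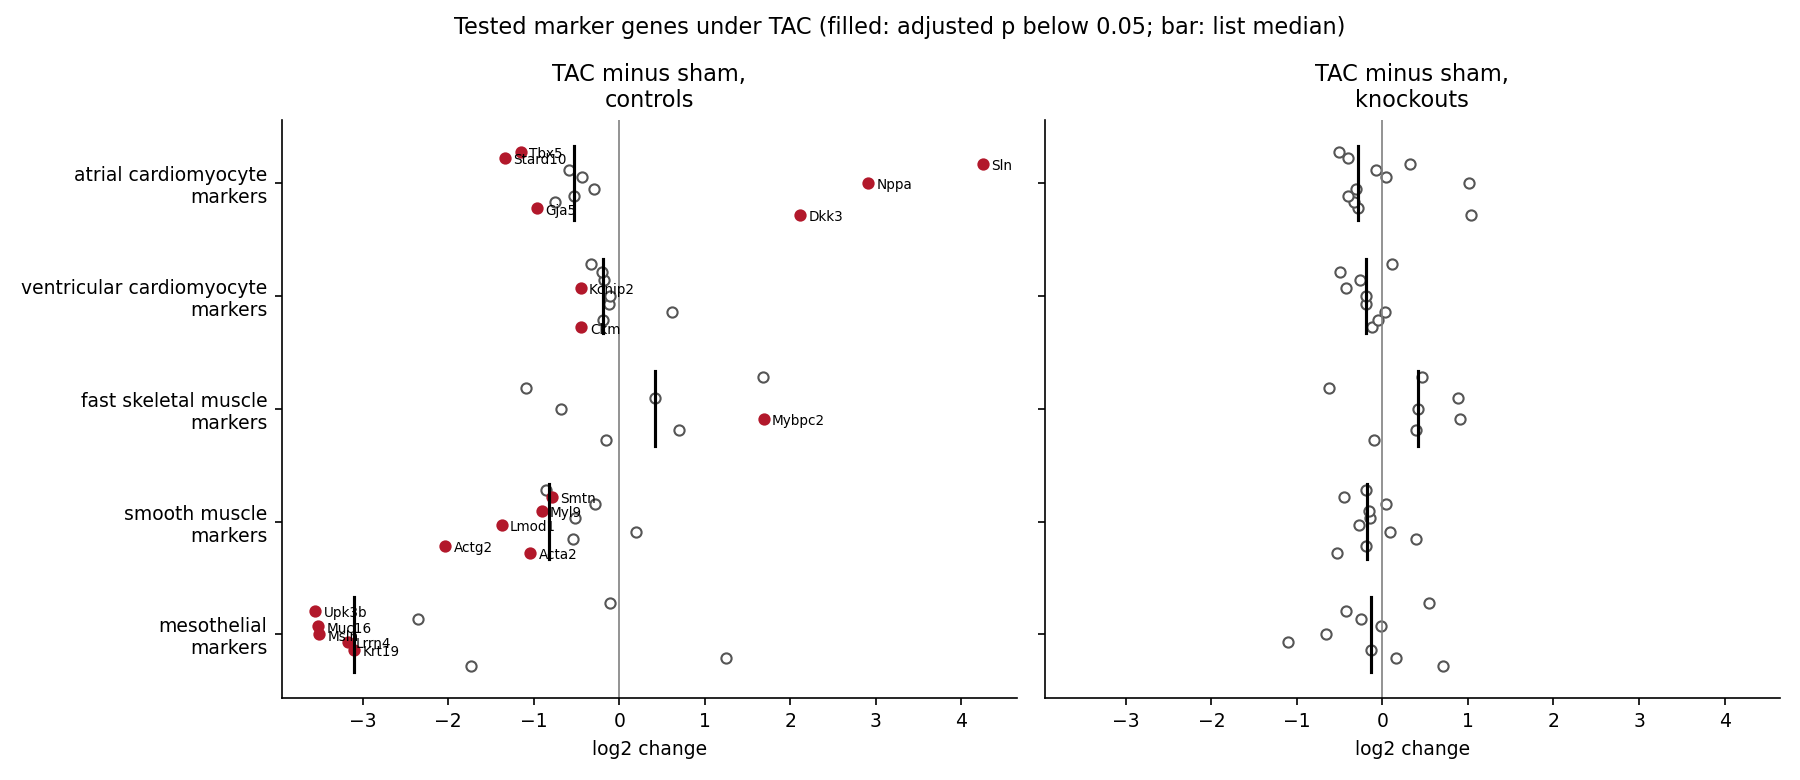
Log2 change under TAC (horizontal axes) of the tested genes of 5 marker lists (vertical axis) in controls (left) and knockouts (right), with filled, named points for an adjusted p below 0.05 and a bar at each list median. In controls the atrial list splits into 3 genes up and 3 down around a median of −0.53, and in knockouts no listed gene passed.

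The tissue carried its ventricular markers throughout, with 9 of 9 tested and a summed level of 5449 to 5600 TPM in knockout TAC, 6019 to 6328 in knockout sham, 5401 to 5600 in control TAC and 5635 to 6492 in control sham libraries. Fhl2, Ckm and Pln made up most of that sum, at means of 2573, 1424 and 1076 TPM in knockout TAC libraries. Irx4 averaged 33.2 and Hey2 2.10 TPM there. Under TAC in controls 2 of the ventricular markers fell, Ckm (−0.44) and Kcnip2 (−0.45), and 0 rose. Of all tested genes 10.6% passed down and 11.0% up there. Without the trend neither Ckm nor Kcnip2 passed (adjusted p = 0.23 and 0.19). Mesothelial markers, genes of the outer lining of the heart, fell in 5 of 9 tested under TAC in controls (Msln, Upk3b, Muc16, Lrrn4 and Krt19, between −3.56 and −3.10), and after TAC Upk3b (2.89) and Muc16 (3.37) were higher in knockouts than in controls. Of the other 4 tested, Upk1b (−2.35), Bnc1 (−1.74), Wt1 (−0.11) and Krt18 (1.25) did not pass under TAC in controls. The summed level of the list was 8.85 to 24.4 TPM in knockout TAC, 13.1 to 23.9 in knockout sham, 11.2 to 13.3 in control TAC and 14.2 to 33.5 in control sham libraries. Smooth muscle markers fell in 5 of 10 under TAC in controls (Acta2, Smtn, Myl9, Lmod1 and Actg2). With the length and GC trend removed, 3 of the 10 passed as lower and 1 as higher. The summed level of the list was 1584 to 1802 TPM in knockout TAC, 1697 to 1916 in knockout sham, 1939 to 2006 in control TAC and 1593 to 2042 in control sham libraries. Des, which cardiomyocytes also express, made up most of that sum (1717 ± 70.9 TPM in control TAC and 1381 ± 150 TPM in control sham libraries). Without it the sum was 236 to 340 TPM in knockout TAC, 331 to 470 in knockout sham, 209 to 306 in control TAC and 343 to 669 in control sham libraries, so control TAC lay below control sham. The part of these cell types in the light chain results was not tested, and in bulk tissue fewer cells of a type and less RNA per cell cannot be told apart. Fast skeletal markers, relevant to Myl1, summed to 55.6 to 66.2 TPM in knockout TAC, 39.4 to 49.7 in knockout sham, 62.3 to 110 in control TAC and 31.6 to 46.1 in control sham libraries, with Tnnc2 at 0 reads in all 12 libraries and Myh4 at 1 read in one control TAC library. Mybpc2 was the 1 of 7 tested that rose in controls, and 0 fell. Mybpc2 alone averaged 29.6 ± 1.13 TPM in knockout TAC, 16.9 ± 1.97 in knockout sham, 49.1 ± 15.2 in control TAC and 13.6 ± 1.77 in control sham libraries. The rise of the sum in control TAC libraries is therefore not a rise of the list as a whole.

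Of 21 transcription factors of heart chambers, 19 were tested. In controls under TAC 1 of these rose and 3 fell, where 11.0% of all tested genes passed up and 10.6% down. Between genotypes after TAC 1 was higher and 1 lower in knockouts, where 4.10% of all genes were higher and 4.13% lower. Under TAC in controls Tbx20 rose (1.19 ± 0.23) and Tbx5 (−1.15 ± 0.19), Nkx2-5 (−0.70 ± 0.13) and Irx3 (−0.68 ± 0.14) fell, with limma adjusted p from 0.0011 to 0.0043. Once the trend on length and GC was taken out, Nkx2-5 (−0.0031) and Irx3 (−0.22) no longer passed. After TAC, Tbx5 was higher (0.75 ± 0.19, adjusted p = 0.027) and Tbx20 lower (−0.80 ± 0.23, adjusted p = 0.041) in knockouts than in controls, and Tbx20 no longer passed there without the trend (−0.42, adjusted p = 0.19). Srf, Gata4 and the Mef2 genes, whose factors bind motifs of the kinds searched above, and Myocd, a coactivator of the Srf protein, did not pass in any of the 5 comparisons.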

How the data were processed

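Per the labels' protocols, RNA was extracted with TRIzol, and 5 µg of total RNA was enriched for polyA and made into stranded TruSeq libraries. The submitters' processing notes name STAR, SAMtools, featureCounts and GRCm38.p6; the sources used here give no versions, strand setting or filters. The deposited signal values are the authors' reads per gene divided by a size factor: within a tolerance of 0.01, 100% of values were whole multiples of 1 step per library, and the factors matched median-of-ratios factors. Totals were 10323605 to 13238934 reads. No replicate pair agreed within sampling noise (chi-square per degree of freedom 5.55 to 59.1 over 12 pairs).

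The main test was limma 3.58.1 (trend, robust) on log2(value + 1) over the 13916 genes that reached a value of 10 in 3 or more libraries, with 4 group means over 12 libraries and Benjamini-Hochberg adjustment at 0.05 per comparison. The scale understates changes of low genes. edgeR 4.0.16, DESeq2 1.42.0 and voom on recovered reads, other scalings, pseudocounts and filters, removal of a loess trend (span 0.5) on length and GC, a replicate block and leaving out libraries were alternatives. The scripts were tested on simulated data. TPM used union exon lengths of GENCODE M21. Shares were tested by exact permutation; the Myl7 pair was tested as the percent share, not the planned log2 ratio, since 1 library held 0 reads. The smooth muscle sum without Des was added after seeing the data. Named genes were the 5 light chains, the 5 tested genes most correlated with each, and members of fixed lists that passed or had the smallest p. The members and lists were chosen with earlier results of these data known. The floor given for 0 reads covers counting error only, while each SE comes from the limma fit and each SD from the libraries of a group.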

Additional observations from a re-analysis of the deposited data

Results flagged for a closer look

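The effect of TAC differed between genotypes for Myl4 and Myl7 by a test of the difference itself. For Myl4 the TAC change was 0.19 ± 0.31 in knockouts and 2.59 ± 0.31 in controls, a difference of −2.40 ± 0.44 (log2, limma adjusted p = 0.028). For Myl7 it was −1.86 ± 0.72 in knockouts and 3.58 ± 0.72 in controls, a difference of −5.44 ± 1.02 (limma adjusted p = 0.032). DESeq2 gave no adjusted p for either difference. Neither call was stable: with 1 library left out, the limma adjusted p reached 0.108 for Myl4 and 0.126 for Myl7. The Myl7 difference also rests on 5 reads over the knockout TAC libraries.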

How the results depend on the processing

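The calls of Myl4 and Myl7 under TAC in controls and between genotypes after TAC kept their direction and their side of the threshold under every alternative run. Correlations of the deviations of same-numbered replicates ranged from −0.067 to 0.158. With 3 libraries per group, these values cannot decide whether same-numbered samples were paired. With the replicate block no member's call changed, Myl4 and Myl7 differences of the TAC effects included (−2.40, adjusted p = 0.018, and −5.44, adjusted p = 0.0099), and 3151, 3, 0, 1198 and 47 genes passed in controls under TAC, knockouts under TAC, between genotypes after sham, after TAC, and in the difference of effects, against 3006, 1, 0, 1145 and 43 without it.

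With the length and GC trend removed, alone and with the block, Myl2 and Myl3 under TAC in controls were at −0.35 and −0.28 and did not pass, Myl1 turned to 0.071 under TAC in controls and to −0.14 between genotypes after TAC, and 1334 (1562 with the block), 470 (532) and 20 (26) genes passed in controls, between genotypes after TAC and in the difference of effects, and 3 with the block in knockouts. The difference of TAC effects for Myl2 and Myl3 passed under DESeq2 (0.73 and 0.65), voom (0.81 and 0.74) and without both control sham replicate 3 and knockout TAC replicate 3 (0.79 and 0.70); voom turned that of Myl1 to 0.12, and a pseudocount of 0.5 ended that of Myl7 (−5.87). In the difference of effects 480 genes passed under DESeq2, 95 under total-count scaling, 1573 under voom, 65 with a pseudocount of 5, 124 with no filter and 1161 without both libraries. In knockouts under TAC 23 passed under DESeq2, 843 under voom, 2 with no filter, 25 with only the libraries compared and 204 without both. Between genotypes 3812 passed after TAC under voom and 3315 without both, and 1 after sham under DESeq2; in controls 1444 passed with only the libraries compared.

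After sham, differences near 0 turned for Myl2 (−0.0013 by edgeR with TMM, −0.059 by total count), Myl3 (−0.0086 by total count) and Myl4 (−0.011 and −0.0028 by edgeR with TMM and with the authors' factors, −0.0041 by DESeq2). With the longest transcript as length the Myl7 share differed by 0.181 percentage points between TAC and sham in controls and by −0.192 between genotypes after TAC, and with no length scaling by 0.120 and −0.127, against 0.395 and −0.419 with union lengths; the exact p was on the same side of the threshold. Without both libraries the Myl4 to Myl3 log2 ratio under TAC in knockouts was −0.14.

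Leaving out 1 library at a time, or both named above together, gave ranges as follows. In controls under TAC: Myl1 −0.25 to 0.0076, Myl2 −0.71 to −0.52, Myl3 −0.68 to −0.48, Myl4 2.18 to 2.91, Myl7 3.21 to 4.21, and 1533 to 3656 genes. In knockouts under TAC: Myl1 −0.33 to 0.049, Myl2 −0.021 to 0.27, Myl3 −0.012 to 0.22, the Myl4 ratio −0.14 to 0.39, and 0 to 204 genes (0 to 7 with 1 library out). After sham: Myl1 −0.079 to 0.30, Myl2 −0.080 to 0.11, Myl3 −0.068 to 0.14, Myl4 −0.28 to 0.45, Myl7 −1.001 to 0.39, the Myl4 ratio −0.22 to 0.34, the Myl7 share −0.0154 to 0.0078 percentage points, and 0 to 1 genes. Between genotypes after TAC: Myl1 −0.038 to 0.22, Myl2 0.61 to 0.90, Myl3 0.60 to 0.84, Myl4 −2.38 to −2.09, Myl7 −6.22 to −5.24, and 202 to 3315 genes (to 2144 with 1 library out). In the difference of effects: Myl1 −0.20 to 0.18, Myl2 0.59 to 0.88, Myl3 0.54 to 0.77, Myl4 −2.84 to −1.99, Myl7 −6.23 to −4.57, and 8 to 1161 genes (to 758 with 1 library out). The causes were not tested. Depth limits Myl7 most, with 5 reads over the knockout TAC libraries, and exact tests of 3 libraries against 3 cannot go below 0.1 (0.005 with labels permuted within genotype or surgery).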
